A study of Mus musculus with 6 samples.

Results

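Reactive gliosis and cytokine-STAT3 signalling were followed through 36 listed genes of reactive glia, the gp130-STAT3 pathway and the injury response, picked by symbol from a table of 55573 genes, and all 36 were found. Of these, 23 were abundant enough to test and 13 were not. Reactive gliosis is the response by which retinal glia, chiefly Müller cells and astrocytes, change shape and gene expression after injury or stress, and Gfap, an intermediate filament protein, is its best known marker. Cytokines of the interleukin-6 family (among them LIF and CNTF) bind receptors that signal through the shared subunit gp130 (Il6st), JAK kinases then phosphorylate STAT3, and STAT3 activates glial genes together with its own feedback inhibitor Socs3. NF-kB and C/EBP factors act beside this pathway on secreted acute-phase proteins and chemokines.

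The libraries were made from C57BL/6 retinal cells that had been sorted as retinal ganglion cells (RGCs), which carry the output of the eye to the brain. All mice in both groups carried the double-floxed Myh9/10 alleles, which encode nonmuscle myosin heavy chains, and neither group was free of virus. Eyes received AAV2-GFP (labelled WT, 3 libraries) or AAV2-Cre (labelled dKO, 3 libraries) into the vitreous 2 weeks before collection, and each library pooled 3 retinas from 3 mice. The promoter that drives Cre, the age of the mice and any sharing of mice between libraries were not given in the sources used here. The p-values below therefore rest on library-to-library spread, part of which may be technical.

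Total counts were 4569880 to 6146226 per library, but a single ribosomal RNA row took 89.8% to 92.8% of 5 libraries and 64.2% of dKO replicate 3. Counts outside that row were 346037 to 576060 in those 5 libraries and 1636581 in dKO replicate 3, so that library has the least counting error. Myh9 was at 64.2 ± 3.91 and 62.7 ± 4.13 CPM and Myh10 at 18.72 ± 2.08 and 18.00 ± 3.39 CPM (CPM, the count as a share of the TMM-scaled library; SD, n = 3 each, WT then dKO), with adjusted p of 0.908 and 0.735 by edgeR's quasi-likelihood test. Counts over the whole gene do not check the deletion of the floxed exons, so WT and dKO below mean only the libraries so labelled. Markers of the labelled cell type were a small part of the counts, and the RGC factor Pou4f2 had 0 counts in every WT library and 0, 2 and 5 in dKO. Leaving out the ribosomal RNA row, the 10 RGC markers together held 0.0220% to 0.0238% of the counts in WT and 0.0269% to 0.0280% in dKO, against 3.25% to 3.35% and 3.33% to 3.60% for 12 Müller glia markers. In such bulk samples, fewer cells of a type and less RNA per cell cannot be told apart.

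To show what a STAT recognition sequence looks like beside the genes that were measured, the RefSeq promoter windows (GRCm38.p6, 250 bases before to 50 after the annotated start) were searched on both strands for TTCNNNGAA, the palindromic letters bound by STAT dimers, with any bases as spacer. Windows were found for 29 of the 36 members. The motif was in a window of Gfap, Socs3, Steap4 and Emp1, and in 9.55% of all symbols in that table. These stretches are shown because they belong to Gfap, on which the results turn, to the feedback inhibitor of the pathway and to the other members whose window holds these letters. Each is written 5′ to 3′ on the strand of the gene, with the match in capitals.
Gfap (chr11:102897184-102897212, minus strand): atgggggtgcTTCCAGGAAgtcaggggca
Socs3 (chr11:117969502-117969530, minus strand): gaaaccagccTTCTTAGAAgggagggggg
Steap4 (chr5:7960346-7960374, plus strand): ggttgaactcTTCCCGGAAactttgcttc
Emp1, upstream match (chr6:135362801-135362829, plus strand): tacaacagggTTCTTTGAAttgatggctc
Emp1, downstream match (chr6:135362899-135362927, plus strand): tccagactgaTTCATAGAAactcctttaa
The Gfap match ran from 2 bases before to 7 bases after the RefSeq start, the Socs3 match from 154 to 146 bases before it, and the Steap4 match from 116 to 108 bases before it. The GENCODE gene span of Gfap reaches further upstream than this RefSeq start. The Gfap window up to the end of that match (chr11:102897194-102897450, minus strand, 257 bases) is given whole, since Gfap carries the main result.
Gfap promoter: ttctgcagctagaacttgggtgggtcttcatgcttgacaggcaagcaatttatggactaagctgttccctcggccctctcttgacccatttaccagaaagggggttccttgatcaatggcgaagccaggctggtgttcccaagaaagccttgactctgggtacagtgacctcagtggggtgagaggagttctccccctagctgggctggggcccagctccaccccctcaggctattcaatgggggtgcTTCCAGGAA

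An NF-kB motif (GGG, any 2 bases, then TTTCC) was in a window of Vim, Steap4, Nfkbia and Serpina3n (1.89% of all symbols), and one for C/EBP, TTGCNNAA, in a window of Lcn2, Ptx3 and Steap4 (12.2% of all symbols). The examples from the acute-phase genes Serpina3n and Lcn2 are shown because both had measurable levels.
Serpina3n, NF-kB (chr12:104406527-104406556, plus strand): aacagaggtgGGGCTTTTCCcatcaggaag
Lcn2, C/EBP (chr2:32387938-32387965, minus strand): gcccttcctgTTGCTCAAccttgcacag
A match describes letters in a window only.

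Gfap was the only member that changed past the threshold. Among the 23 tested members 1 rose and none fell, where 0.734% of 8444 genes rose, 1.18% fell and 1.92% were called in either direction (quasi-likelihood test in edgeR, threshold 0.05 on the p-value adjusted by Benjamini-Hochberg). At an unadjusted p under 0.05 there were 6 members higher and 2 lower, together 34.8% of the 23, against a background of 12.5% of all genes tested (5.66% higher and 6.88% lower). The CPM values of the groups did not overlap for 10 of the 23 (43.5%), against 17% of all genes tested. The members had been listed with earlier results of these data known, so these shares are descriptions. Of the 23, 16 had a positive log2 fold change (69.6%, against 49.8% of all genes) and their median was 0.13, against -0.00072 for all genes. Without Gfap the median of the other 22 was 0.12. Without dKO replicate 3, 24 members were tested, Gfap was still the only call, and 6 members (25%, against 10.3% of all genes) had an unadjusted p under 0.05. The summed counts of the 36 members took 0.456% to 0.471% of all counts but the ribosomal RNA row in the WT libraries and 0.489% to 0.514% in the dKO libraries, and without Gfap 0.434% to 0.448% and 0.457% to 0.477%. Gfap itself was 3.96% to 4.87% of the member counts in WT and 6.54% to 7.5% in dKO. Of the 4 members whose promoter window held the STAT letters, Gfap passed, Socs3 and Steap4 did not, and Emp1 was too low to test. Scaling by library totals, which the ribosomal RNA row dominates, moved the median of all genes to 1.21 and made the log2 fold change of every tested member positive, and also those of Iigp1, Gbp2 and Slc1a2 described below, so each change here is relative to the bulk of genes. Exons of 9 of the 36 members overlap those of another gene. On the same strand this holds only for Hspb6 (77 bases) and Serpina3m (60 bases), where reads could belong to either gene. For the others the overlap is on the other strand, so reads there are uncertain only if strand was not used in counting. Members of the Serpina3 family are closely related copies, so their counts are uncertain.

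**Figure D1:**
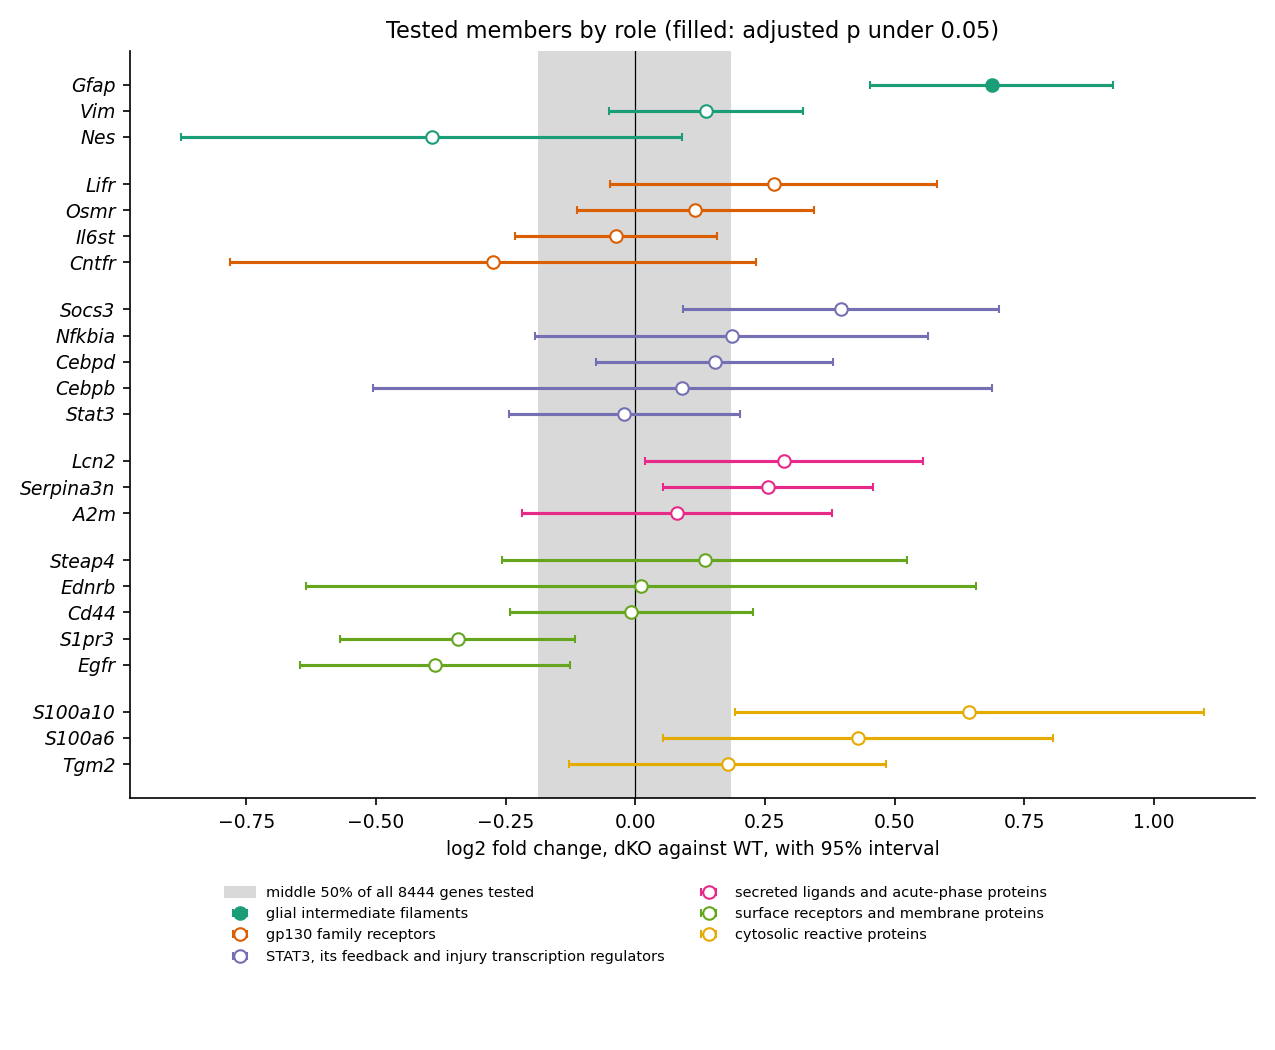
Log2 fold change of the 23 tested members (x axis, dKO against WT; points, with 95% intervals as bars), grouped by role, over the middle 50% of all 8444 genes tested (grey). Gfap at 0.69 is the only filled point (adjusted p under 0.05), and the intervals of 15 members include 0.

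Gfap, the filament protein of reactive Müller glia and astrocytes (ENSMUSG00000020932, chromosome 11, 102887336 to 102900912, minus strand, GRCm38), was at 24.5, 19.96 and 24.99 CPM in WT replicates 1 to 3 and at 42.6, 35.4 and 35.7 CPM in dKO replicates 1 to 3. Every dKO library lay above every WT library, with dKO replicate 1 the highest and WT replicate 2 the lowest. The means were 23.1 ± 2.77 and 37.9 ± 4.08 CPM (SD, n = 3 each), from 273 WT and 914 dKO counts in all. The fitted change was 1.61-fold (95% interval 1.37 to 1.90), a log2 fold change of 0.69 ± 0.12 (SE), with an edgeR adjusted p of 4.04e-05, and Gfap ranked 29 among the 8444 genes by p-value. Leaving out dKO replicate 3, the log2 fold change was 0.75 (adjusted p = 1.57e-05). Of 18 alternatives, 1 lost the call, with library totals as the scale (log2 fold change 1.88, adjusted p = 0.301).

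Its filament partners did not pass. Vim, vimentin, the filament with which Gfap co-assembles in Müller cells, was at 83.5, 85.9 and 90.3 CPM in WT and 99.04, 92.9 and 93.5 CPM in dKO. The groups did not overlap, but the log2 fold change was only 0.14 ± 0.094 (SE; edgeR adjusted p = 0.602), and its 95% interval of -0.051 to 0.32 lies below that of Gfap (0.45 to 0.92). Nes, nestin, a filament of progenitors and reactive glia, was at 5.46, 5.70 and 5.36 CPM in WT and 4.03, 4.37 and 4.18 CPM in dKO, again without overlap, here lower in dKO, with a value of -0.39 ± 0.24 (adjusted p = 0.540). Of 5 other filament and linker genes (Synm, Plec, Des, Lmna, Sync), 3 were tested and none was called. The smallest p belonged to Plec, the linker plectin (-0.10 ± 0.14), and Synm, synemin (0.14 ± 0.21), with adjusted p of 0.819 and 0.845.

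**Figure D2:**
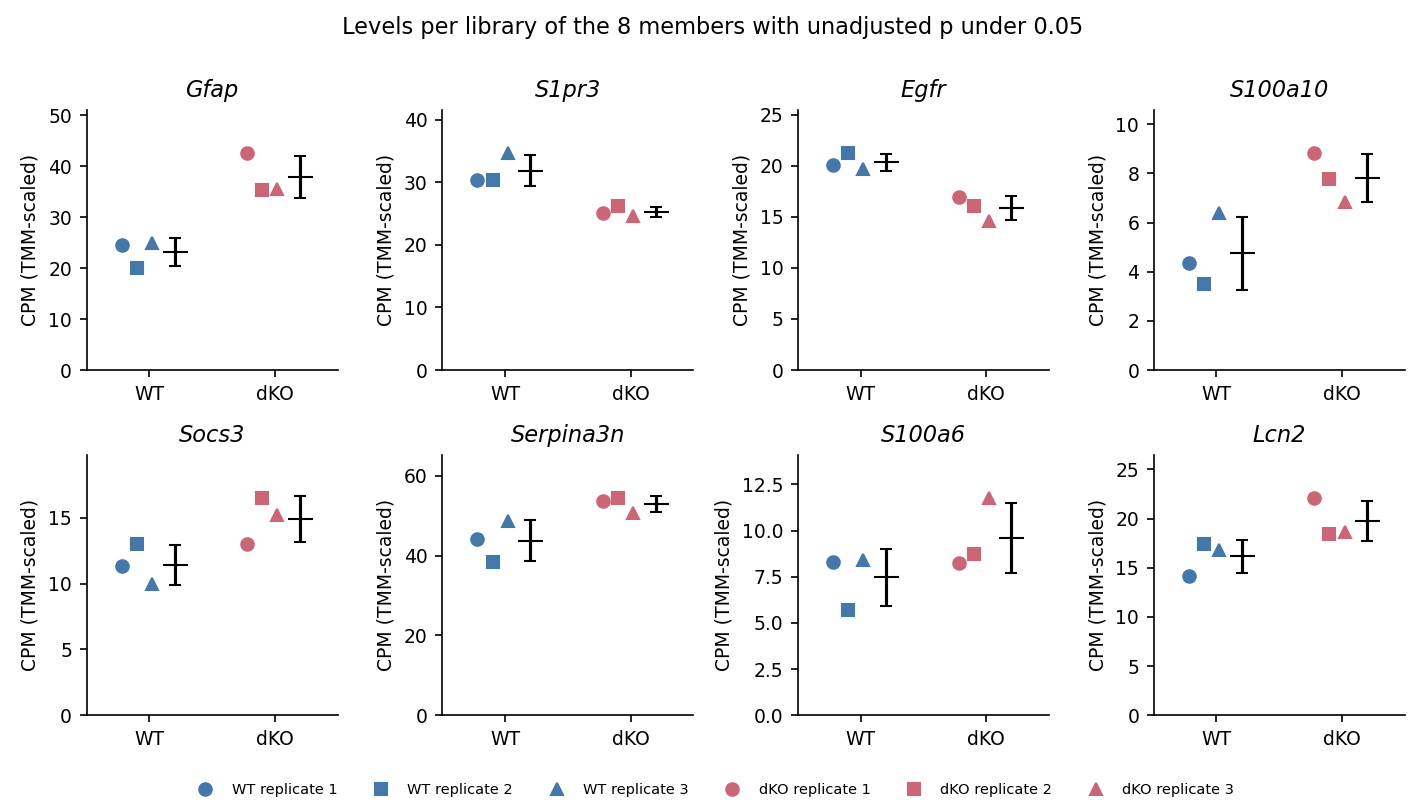
TMM-scaled CPM per library (y axis, from 0) of the 8 members with an unadjusted p under 0.05, WT in blue and dKO in red, symbols for replicates 1 to 3, bars for mean and SD. In Gfap the groups are apart, from 24.99 CPM in the highest WT library to 35.4 in the lowest dKO library, whereas the S100a6 groups overlap.

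The ratio of Gfap to another transcript of the same library hardly depends on the scaling between libraries. The log2 ratio of Gfap to Vim (0.5 CPM added to both) was -1.75, -2.08 and -1.83 in WT and -1.21, -1.38 and -1.38 in dKO. The difference of 0.56 gave a two-sided exact permutation p of 0.1, the smallest that 3 against 3 libraries allow, so a ratio cannot pass 0.05 in this design. The sum of the Müller glia markers left out Vim and was led by Glul, glutamine synthetase. Against that sum, the log2 ratio was -7.16, -7.41 and -7.13 in WT and -6.44, -6.63 and -6.70 in dKO, a difference of 0.64 (exact permutation p = 0.1). Gfap thus stood higher in every dKO library relative to the summed Müller glia transcripts as well. None of the 12 listed Müller glia markers, which include Vim, was called. With each of the other 22 tested members as denominator in turn, the Gfap ratio did not overlap between groups for 15. It overlapped for Lifr, Socs3, Tgm2, S100a10, S100a6, Ednrb and A2m. Gfap alone already separated the groups, so a steady denominator gives no overlap either. The share over all tested genes as denominators was not computed, so this count describes Gfap rather than those members. For S100a10 the mean log2 ratio of the WT libraries was 2.20 ± 0.27 and that of the dKO libraries 2.21 ± 0.089 (SD, n = 3 each), a difference of 0.0054 (exact permutation p = 1; over the 25 ratios computed, adjusted p were 0.139 for each p of 0.1 and 1 here). For Socs3 the difference was 0.33 (exact permutation p = 0.4).

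**Figure D3:**
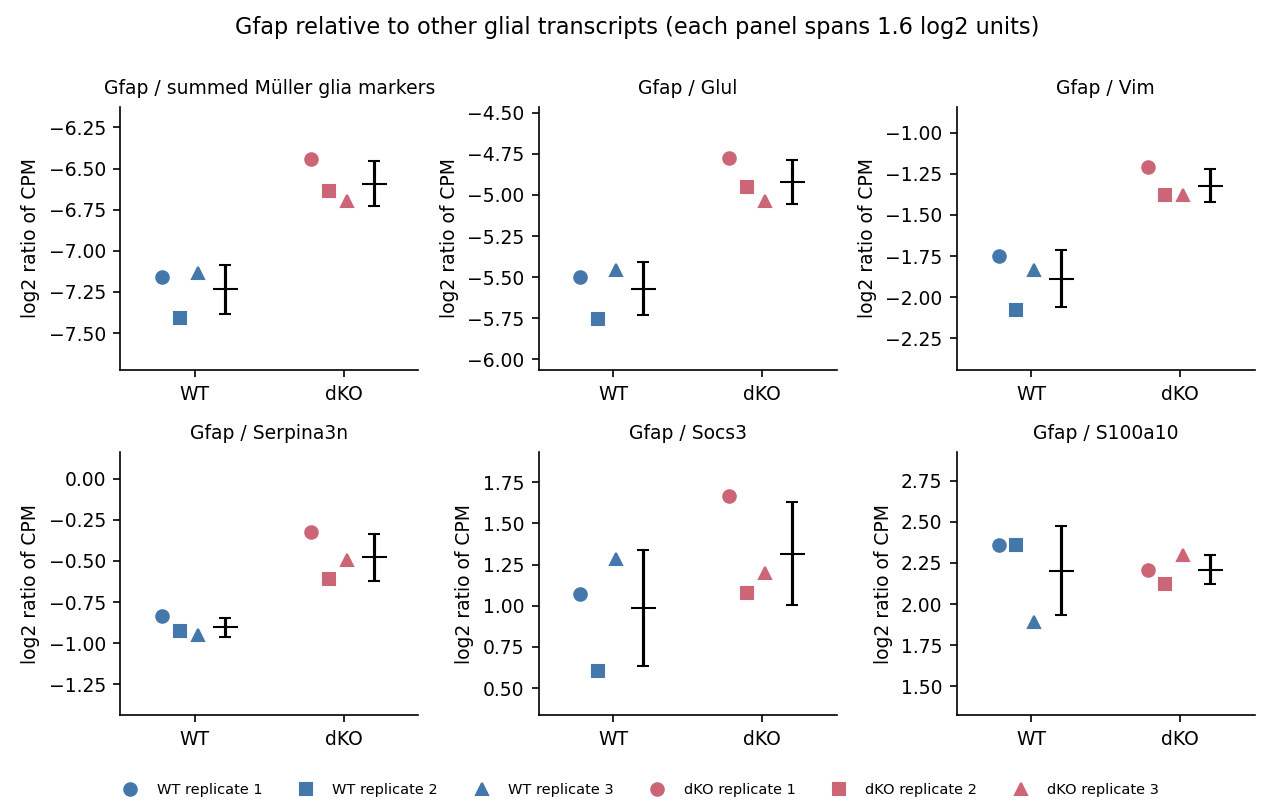
Log2 ratio of Gfap to the summed Müller glia markers (without Vim), Glul, Vim, Serpina3n, Socs3 and S100a10 in each library (y axis, each panel 1.6 log2 units high, WT blue, dKO red, bars for mean and SD). Groups separate for the first 4 and overlap for Socs3 and S100a10, where the difference was 0.33 and 0.0054.

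The receptors of the gp130 family showed no called change. Il6st, gp130 itself, was at 67.5, 65.3 and 58.4 CPM in WT and 65.8, 62.4 and 59.3 CPM in dKO. These values overlapped, and the log2 fold change of -0.037 had a 95% interval of -0.23 to 0.16. Osmr, the oncostatin M receptor, had mean levels of 27.2 ± 2.52 CPM in WT and 29.4 ± 1.73 CPM in dKO (SD, n = 3 in both), which differed by 0.12 ± 0.11 (SE) on the log2 scale. Lifr, the LIF receptor, was the only 1 of the 4 whose groups did not overlap, with 10.27, 11.7 and 12.2 CPM in WT and 12.7, 17.2 and 12.7 CPM in dKO, and its value of 0.27 ± 0.16 did not pass (edgeR adjusted p = 0.509). Cntfr, the CNTF-binding subunit, was at 5.001 ± 0.398 and 4.38 ± 0.795 CPM (adjusted p = 0.735).

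The ligands of these receptors were near the limit of detection. Lif had 2, 1 and 3 counts in WT and 5, 3 and 7 in dKO, Cntf had 1 count in a single dKO library, and Il6 had 0 counts in the WT libraries and 1 in each dKO library. A count of 0 allows up to 3 counts, or 0.656 to 0.950 CPM in the WT libraries. Of 27 other genes of the gp130-JAK-STAT pathway (ligands, receptors, kinases, STATs and feedback inhibitors), 15 were tested and none rose (edgeR quasi-likelihood test). The median log2 fold change of the 15 was 0.019, beside -0.00072 for all genes.

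STAT3 and the transcription regulators of injury did not pass. Stat3 was at 36.5, 28.2 and 36.5 CPM in WT and 36.1, 30.6 and 33.6 CPM in dKO, with a log2 fold change of -0.021 (95% interval -0.24 to 0.20). Its groups overlapped throughout, and 72 bases of its exons overlap Stat5a on the other strand, so a few reads could belong to either gene if strand was not used in counting. Socs3, the feedback inhibitor that STAT3 induces, was at 11.4, 12.99 and 9.95 CPM in WT and 13.05, 16.5 and 15.2 CPM in dKO. The lowest dKO library was just above the highest WT library, and the log2 fold change of 0.40 ± 0.15 had an unadjusted p of 0.0115 and an edgeR adjusted p of 0.214.

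Cebpd, a C/EBP factor of the acute-phase response, was the third most abundant member per kb of exon, at 27.1, 34.2 and 28.3 CPM in WT and 31.9, 28.9 and 35.7 CPM in dKO (log2 fold change 0.15 ± 0.12, SE; adjusted p = 0.654). Its relative Cebpb was at 3.34 ± 0.683 and 3.47 ± 0.727 CPM (SD, n = 3 each). Nfkbia, which encodes the NF-kB inhibitor IkB-alpha and is itself an NF-kB target, was at 8.09, 8.24 and 9.18 CPM in WT and 9.02, 5.82 and 11.4 CPM in dKO, so that the lowest and the highest library both carried the dKO label (log2 fold change 0.19 ± 0.19; -0.16 without dKO replicate 3). Bcl3, a nuclear IkB protein, had 11, 5 and 7 counts in WT and 8, 8 and 39 in dKO, and the stress gene Gadd45b had 10, 8 and 4 against 7, 6 and 35. Neither was tested, and after scaling for depth their CPM overlapped between groups.

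Among the acute-phase proteins 3 were tested and none passed the threshold, with log2 fold changes of 0.080 to 0.29. Serpina3n, a secreted serine protease inhibitor of reactive astrocytes (chromosome 12, 104406729 to 104414329), was the most abundant member per kb of exon, at 21.2 ± 2.52 CPM per kb of the WT libraries and 25.6 ± 0.974 of the dKO libraries (SD, n = 3 each), followed by Vim at 18.2 ± 0.729 and 20.06 ± 0.710. Gfap stood 3 places below Serpina3n, at 5.49 ± 0.656 and 8.98 ± 0.968 CPM per kb. Serpina3n values were 44.1, 38.3 and 48.7 CPM in WT and 53.5, 54.4 and 50.5 CPM in dKO. The groups did not overlap, and the log2 fold change of 0.26 ± 0.10 (SE) had an unadjusted p of 0.0140 and an edgeR adjusted p of 0.228. Lcn2, the iron-siderophore binding protein lipocalin 2, was at 14.2, 17.4 and 16.8 CPM in WT and 22.1, 18.4 and 18.7 CPM in dKO, also without overlap (0.29 ± 0.13, unadjusted p = 0.0360, adjusted p = 0.348). A2m, a broad protease inhibitor, was at 14.5 ± 3.61 and 15.3 ± 2.26 CPM.

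**Figure D4:**
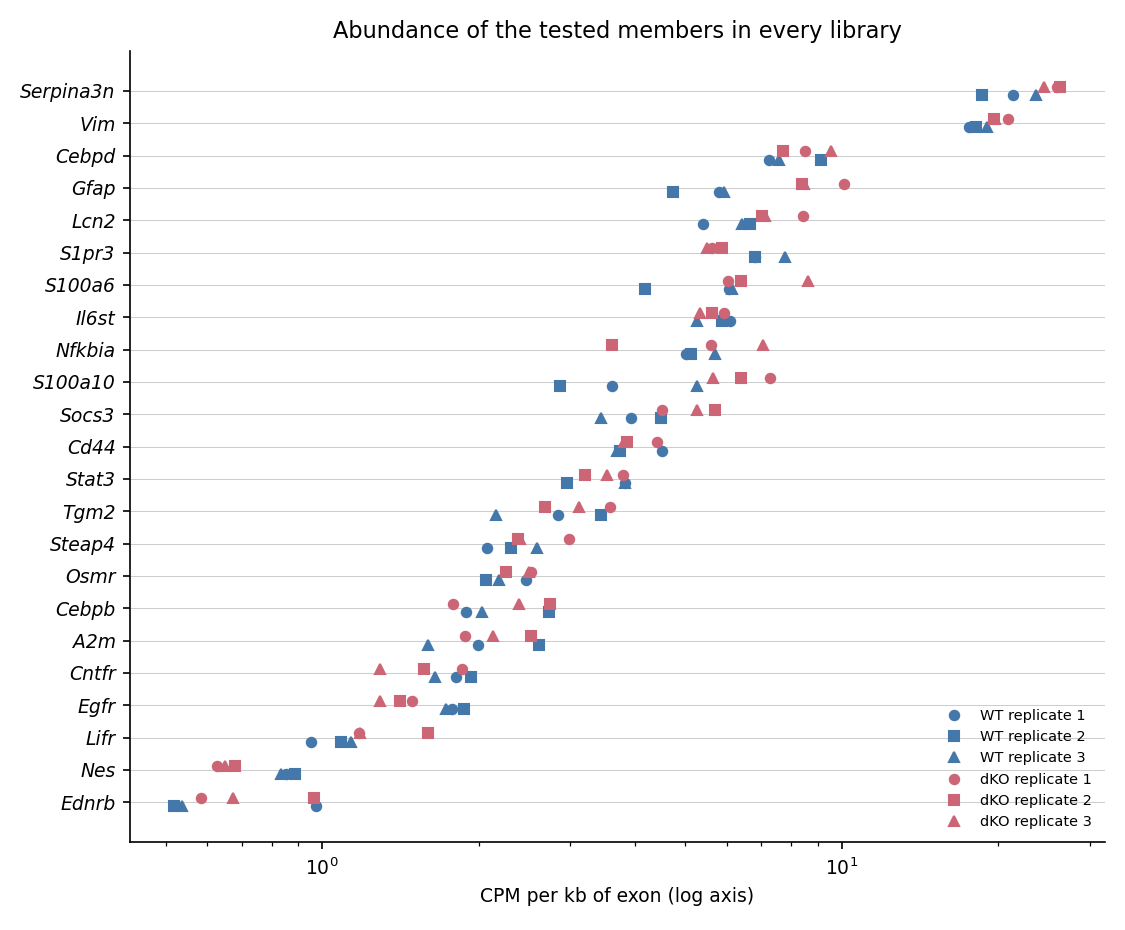
CPM per kb of exon (x axis, log scale) of the 23 tested members in every library, ordered by mean level, WT in blue and dKO in red with symbols for replicates 1 to 3. Serpina3n and Vim lead, at means of 21.2 and 18.2 CPM per kb in WT, and Gfap moves from 5.49 to 8.98, while the groups overlap in 13 of the 23 rows.

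The remaining secreted members were too low to test. Cxcl10, a chemokine induced by interferon, had 11, 5 and 12 counts in WT and 7, 4 and 29 in dKO, and Ccl2, a monocyte chemokine, had 8, 8 and 5 against 1, 1 and 26. As CPM, Ccl2 was at 1.75, 2.53 and 1.28 in WT and 0.192, 0.243 and 1.70 in dKO, so dKO replicate 3 lay among the WT libraries and the other 2 dKO libraries below them. The pooled Ccl2 ratio of dKO to WT was 0.63 (exact binomial 95% interval 0.345 to 1.17) with all libraries and 0.119 (0.0135 to 0.487) without dKO replicate 3. Timp1, an inhibitor of matrix metalloproteinases, had 1, 3 and 4 counts in WT and 3, 4 and 34 in dKO, or 0.219, 0.950 and 1.02 CPM against 0.576, 0.971 and 2.22 CPM. Pooled counts gave a ratio of 2.42 for the same depth (exact binomial 95% interval 1.12 to 5.98), which rested on dKO replicate 3, since without it the ratio was 1.09 (0.337 to 3.45). Edn2, an endothelin that stressed photoreceptors are known to make, had 1 WT count and 5 dKO counts, and Ptx3, a pentraxin, had 0 WT counts and 6 dKO counts, at most 3 in a library. Fbln5, an extracellular matrix protein, had 3 and 7 counts, and Serpina3m, a neighbour of Serpina3n on chromosome 12, had 0 and 2. When the low-count filter was dropped, none of the 13 was called (edgeR quasi-likelihood test), and Timp1 alone of them had an unadjusted p under 0.05 (0.0267, adjusted p = 0.559). Without the filter and without dKO replicate 3, Timp1 had an unadjusted p of 0.855, and Ccl2 one of 0.000454 (edgeR adjusted p = 0.0678).

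Among the surface receptors, the lowest fold changes were those of S1pr3 and Egfr, and neither passed. S1pr3, a receptor for the lipid sphingosine-1-phosphate (chromosome 13, 51408639 to 51422797), was at 30.4, 30.4 and 34.7 CPM in WT and 25.1, 26.2 and 24.6 CPM in dKO. Every dKO library lay below every WT library, and the log2 fold change was -0.34 ± 0.11 (SE; unadjusted p = 0.00356, edgeR adjusted p = 0.111). Egfr, the receptor of epidermal growth factor (chromosome 11, 16752203 to 16918158), was at 20.10, 21.2 and 19.6 CPM in WT and 16.9, 16.02 and 14.6 CPM in dKO, again without overlap (-0.39 ± 0.13, unadjusted p = 0.00409, adjusted p = 0.1195). Cd44, a hyaluronan receptor, had 26.98 ± 3.14 CPM in WT and 27.3 ± 2.29 CPM in dKO (SD, n = 3 in both), with a 95% interval of -0.24 to 0.23 for the log2 fold change, and the metalloreductase gene Steap4 had 7.33 ± 0.804 and 8.17 ± 1.07 CPM. Ednrb, the endothelin receptor of glia, was at 2.89 ± 1.09 and 3.16 ± 0.853 CPM, and its 95% interval of -0.64 to 0.66 leaves room for changes in either direction. Emp1, a membrane protein of the astrocyte panel, had 2, 6 and 7 counts in WT and 7, 5 and 26 in dKO, and Cd109, a membrane-anchored protein, had 2 in each group.

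The ligands of these receptors were scarce. Of 13 genes for endothelins, EGF family ligands and their partners, 3 were tested and none was called. The smallest p belonged to Erbb2, a partner of Egfr (-0.16 ± 0.28, SE; edgeR adjusted p = 0.884), and Ednra, the other endothelin receptor (0.074 ± 0.385; adjusted p = 0.965).

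In the cytosolic group the S100 genes had the higher values in dKO. S100a10, which forms a complex with annexin A2 (chromosome 3, 93555080 to 93564643), was at 4.37, 3.49 and 6.38 CPM in WT and 8.83, 7.77 and 6.86 CPM in dKO. The groups did not overlap, but WT replicate 3 came close to dKO replicate 3. Its log2 fold change of 0.64 ± 0.23 (SE) was nearly as large as that of Gfap, with a wider 95% interval of 0.19 to 1.096 (unadjusted p = 0.00579, edgeR adjusted p = 0.147), from 56 WT and 183 dKO counts. S100a6, a calcium-binding protein, was at 8.30, 5.70 and 8.42 CPM in WT and 8.25, 8.74 and 11.8 CPM in dKO, which overlapped (0.43 ± 0.19, unadjusted p = 0.0260, adjusted p = 0.302). Without dKO replicate 3 the S100a6 value was 0.16 (adjusted p = 0.902). Tgm2, a transglutaminase, was at 12.97 ± 2.95 and 14.4 ± 2.07 CPM (SD, n = 3 each). Hspb6, a small heat shock protein, had 7, 2 and 7 counts in WT and 5, 3 and 11 in dKO, and Aspg, an asparaginase, had 2 and 4 counts in all.

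**Figure D5:**
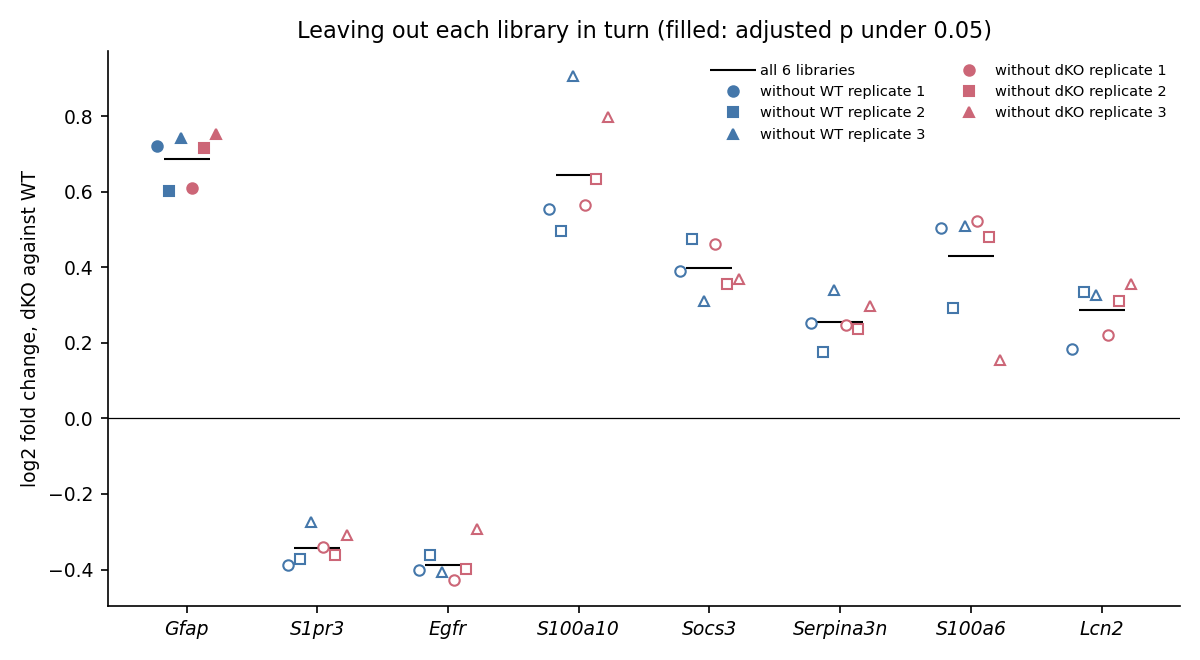
Log2 fold change, dKO against WT (y axis), of the 8 members with an unadjusted p under 0.05, with all 6 libraries (black bars) and with each library left out in turn (symbols; filled, adjusted p under 0.05). Gfap stays between 0.60 and 0.75 and is filled throughout, while S100a6 falls from 0.43 to 0.16 without dKO replicate 3 and no other member is filled.

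Of 19 other genes of published astrocyte reactivity panels, 11 were tested, none rose and 2 fell, with a median log2 fold change of -0.15 (-0.00072 for all genes). The 2 are 18.2% of the 11, where 1.92% of all genes tested were called in either direction and 1.18% fell. Iigp1, an interferon-inducible GTPase, was at 13.99, 13.3 and 11.7 CPM in WT and fell to 5.37, 5.34 and 7.05 CPM in dKO, a log2 fold change of -1.04 ± 0.18 (SE; edgeR adjusted p = 3.87e-05). Gbp2, a guanylate-binding protein that interferon also induces, was at 32.8, 29.5 and 32.6 CPM in WT and 24.95, 22.3 and 20.4 CPM in dKO (-0.53 ± 0.12, adjusted p = 0.00299). The Gbp2 call was lost with DESeq2 (adjusted p = 0.0995) and without dKO replicate 3 (-0.42, adjusted p = 0.134). Without dKO replicate 3, 1 of the 11 fell, Iigp1.

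Marker genes of other cell types differed between the groups beside these values, and their part in the Gfap result was not tested. Of all 8444 genes tested, 0.734% rose and 1.18% fell. Of the 8 rod photoreceptor markers 7 rose (87.5%). The summed level of the 8 was 175.2 to 202.2 CPM in WT and 339 to 417 CPM in dKO. Of 6 bipolar markers 4 fell (66.7%). The 6 summed to 173.7 to 186.3 CPM in WT and 127.4 to 129.3 CPM in dKO. The 12 Müller glia markers summed to 3561 to 3670 CPM in WT and 3662 to 3850 CPM in dKO, with none called. Their log2 fold changes were positive for 6 and negative for 6. The CPM values of the groups did not overlap for 5 of the 12 (41.7%, against 17% of all genes tested). Of these, Rlbp1 (0.12), Clu (0.18), Apoe (0.15) and Vim (0.14) were higher in dKO and Kcnj10 was lower. Only Kcnj10 had an unadjusted p under 0.05, at 34.6 ± 4.34 CPM in WT and 26.1 ± 2.32 CPM in dKO (SD, n = 3 each). Its log2 fold change of -0.39 ± 0.11 (SE) just missed the threshold (edgeR adjusted p = 0.0554). The 12 microglia and macrophage markers summed to 794.6 to 883.7 and 858.3 to 900.7 CPM, and only Lyz2, lysozyme, rose (0.50 ± 0.097, SE; edgeR adjusted p = 0.000392). Of the RGC markers only Nefl, the light neurofilament chain, rose among 3 tested (1.63 ± 0.28, adjusted p = 3.96e-05). The other 2 tested RGC markers had negative values, and neither was called. Isl1 was at 7.43, 7.60 and 6.12 CPM in WT and 4.80, 3.15 and 4.77 CPM in dKO, without overlap (-0.65 ± 0.23, SE; edgeR adjusted p = 0.138). Thy1 had a log2 fold change of -0.073 ± 0.17 (adjusted p = 0.911). No marker was called among 3 tested endothelial, 4 mural and 3 lymphocyte genes. The sums over each of these lists, untested markers included, overlapped between groups. Kdr and Flt1 made up most of the endothelial sum, at means of 162.7 and 73.9 CPM in WT. Of the 3 tested endothelial markers, 1 had a positive log2 fold change and 2 a negative one. The positive one was Pecam1, at 3.05 ± 0.593 CPM in WT and 3.46 ± 0.356 CPM in dKO (SD, n = 3 each). Its log2 fold change was 0.15 ± 0.31 (SE; edgeR adjusted p = 0.893). The endothelial markers too low to test had lower means in dKO (WT then dKO). Cldn5 was at 2.10 and 0.574 CPM, Cdh5 at 1.24 and 0.227 and Tek at 1.23 and 0.319. These rest on few counts, for Cldn5 12, 6 and 7 in WT and 1, 2 and 16 in dKO.

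Several defining markers of astrocytes, the other retinal cells that express Gfap, were near 0. Pax2, a transcription factor of retinal astrocytes, had 1 count in WT and 1 in dKO, and Fabp7 had 2 and 0. Gja1 had 3, 1 and 4 counts in WT and 1, 2 and 5 in dKO, and S100b had 0, 1 and 6 against 6, 3 and 10. Of the 7 markers on that list 3 were abundant enough to test, none rose, and 1 fell (1.18% of all genes tested fell). That gene was Slc1a2, a glutamate transporter that bipolar cells and cones also express (-0.39 ± 0.097, SE; edgeR adjusted p = 0.0119), and its call was lost with DESeq2 (adjusted p = 0.0556), without the low-count filter (0.0713), without WT replicate 1 (0.0769) or replicate 2 (0.0708), and without dKO replicate 1 (0.0597). The list summed to 90.03 to 93.1 CPM in WT and 73.1 to 83.5 CPM in dKO. Slc1a2 carried that difference, since the other 6 markers summed to 22.5 to 25.2 CPM in WT and 23.8 to 29.4 CPM in dKO. Aldh1l1, a folate enzyme listed as an astrocyte marker, had the most counts of those 6. It was at 18.1, 16.8 and 19.1 CPM in WT and 19.8, 23.1 and 20.9 CPM in dKO, without overlap and without passing (0.22 ± 0.13, SE; edgeR adjusted p = 0.493). Which cells its counts came from cannot be told in these bulk libraries. Pdgfra, the other tested marker of the list, had a lower mean in dKO, at 5.24, 4.75 and 3.57 CPM in WT and 2.69, 5.10 and 2.87 CPM in dKO. These groups overlapped, and the change did not pass (-0.48 ± 0.28, SE, edgeR adjusted p = 0.506). Slc1a2, Lyz2 and Nefl, the called genes of their lists, are named here after their values were seen. The same holds for Aldh1l1, Pdgfra, Kcnj10, Rlbp1, Clu, Apoe, Isl1, Thy1, Pecam1 and the untested endothelial markers.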

How the data were processed

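Total RNA from the sorted cells was sequenced after stranded library preparation, per the labels' protocols. The deposited table gives raw read counts per Ensembl gene, with no scaling by the authors. The submitters' processing notes name STAR 2.7.0d, DESeq2 1.22.2 and the build GRCm38, with counting program, strand setting and annotation release not given in the sources used here. The members and lists were chosen with earlier results of these data known. Genes passed filterByExpr (minimum count 10, minimum total 15). TMM factors were 0.641 to 3.43. The test was the two-sided quasi-likelihood F test of edgeR 4.0.16 in R 4.3.3, with group as its only term and Benjamini-Hochberg adjustment over all 8444 genes tested. SE is the log2 fold change over the square root of F, and intervals are 95%. CPM refer to the counts of the genes kept, ribosomal RNA row included, times the TMM factors, and levels per kb use the union of exons in the GENCODE M21 annotation. Ratios (0.5 CPM added) were compared by exact permutation over libraries. Binomial intervals and limits from 0 counts, which take 3 counts as the floor, cover counting error only. Alternatives were other scalings and filters, DESeq2 1.42.0, limma-voom (limma 3.58.1), robust dispersion, a replicate block and each library left out. Thinning dKO replicate 3 to the depth of the others, the values of untested members without it and the astrocyte sum without Slc1a2 were added after seeing the data. All members were named. Values in every library were given for those with unadjusted p under 0.05 and the 10 most abundant per kb, and from each pathway list the called genes, or else the 2 with the smallest p, were named. The result of 1 gene of the pathway lists is not reported here. The steps were tested on simulated counts. Figures were drawn with matplotlib 3.10.9.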

Additional observations from a re-analysis of the deposited data

How the results depend on the processing

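Gfap kept its direction in all 18 alternatives and its call in 17, with a log2 fold change of 0.60 to 0.75 when each library was left out. With library-total scaling it was 1.88 (adjusted p = 0.301), 3 genes were called, all higher, against 162 (62 higher, 100 lower) with TMM, and 0 members were called, while the median of all genes moved to 1.21. The cause of the lost call was not tested. Under that scaling these log2 fold changes turned positive: Nes 0.81, S1pr3 0.87, Cd44 1.18, Il6st 1.14, Cntfr 0.89, Stat3 1.201, Egfr 0.80, Iigp1 0.20, Gbp2 0.66, Slc1a2 0.83, Plec 1.04, Erbb2 1.02, Myh9 1.13 and Myh10 0.99. The count of called genes was 52 with DESeq2, 257 at an adjusted p under 0.1, 53 with a 2-fold minimum and 90 to 186 when each library was left out, the lowest without WT replicate 1. Values near 0 changed sign elsewhere. With upper-quartile scaling Cd44 was 0.017 and Stat3 0.0034, with no low-count filter Cd44 was 0.022 and Stat3 0.0082, and Ednrb was -0.020 with limma-voom and -0.024 with quality weights. With dKO replicate 3 thinned, Cd44 was 0.0029 and Nfkbia -0.079.

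Leaving out each library gave Cd44 -0.066 to 0.097, Il6st -0.094 to 0.012, Stat3 -0.12 to 0.033, Cebpb -0.031 to 0.24, Ednrb -0.15 to 0.41, A2m -0.068 to 0.25, Nfkbia -0.16 to 0.32, Plec -0.30 to 0.15, Synm -0.12 to 0.34, Erbb2 -0.36 to 0.21, Ednra -0.18 to 0.32, Myh9 -0.082 to 0.022 and Myh10 -0.24 to 0.088. The members with an unadjusted p under 0.05 were 8 in the design as fixed, 3 with library totals, 5 with DESeq2 and 6 without dKO replicate 3. The gap in the summed share of member counts was 0.0421 percentage points outside the ribosomal RNA row and 0.0552 with all counts as denominator, where dKO replicate 3 stood at 0.183% and the other libraries at 0.0328% to 0.0525%. Gfap against Vim was 0.47 to 0.63 and against the Müller glia markers 0.56 to 0.70 when each library was left out.

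With the replicate number as a block (replicate block), Gfap was 0.70 (adjusted p = 2.72e-05), 158 genes and 1 member were called and Cd44 was 0.019. The Gfap ratios to Vim and to the Müller glia markers kept 0.56 and 0.64, with an exact sign-flip p of 0.25 for each, the smallest that 3 pairs allow. Deviations of same-numbered libraries correlated at 0.0250, 0.0127 and 0.0281, and those of the other pairs at -0.0209 to -0.00253. Each library thus correlated best with its own number. All of these values are small, and they cannot tell whether same-numbered libraries share more than a number. Depth limits the 13 members that were too low to test.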
